A study of Homo sapiens with 12 samples.

Results

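The 10 genes described here encode the core engine of the cell cycle: the G1 cyclins CCND1, CCNE1 and CCNE2, the S/G2 cyclins CCNA2, CCNB1 and CCNB2, the kinases CDK1 and CDK2, and the phosphatases CDC25A and CDC25C. They were listed by name and function, and each was represented by its brightest probe set with a single gene symbol; every one of the 10 had 1 such probe set. They are 10 of 18417 genes measured in SK-mel147, an established human melanoma cell line, with 12 Human Gene 1.0 ST arrays from Affymetrix. All cells carried a lentiviral short hairpin RNA, the controls included, and no uninfected cells were analysed. The 6 hairpins had 2 arrays each: sh_37 and sh_38 against H2AZ2, sh_83 and sh_84 against H2AZ1, and the control hairpins scrambled and luciferase. H2AZ2 and H2AZ1 encode the isoforms of H2A.Z, a histone variant that takes the place of H2A in some nucleosomes. For replicate 2 of sh_84 the labels disagree on the hairpin, and its title decided here. Whether replicates were separate cultures or infections is not stated, so the spread between the 2 arrays of a hairpin may be technical. P-values from the fit of 6 hairpins measure that spread only. Those from the comparisons of targets, with 2 hairpins each, also take in the spread between the hairpins of a target. Values are log2 expression levels, so a difference of -1 is a fall to 50% of the level; levels of different genes come from different probes and are not set against each other.

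Cyclins bind and activate cyclin-dependent kinases. Cyclin D1 (CCND1) works with CDK4 and CDK6 in G1 in response to growth signals, the E cyclins activate CDK2 at the start of S phase, cyclin A2 serves CDK2 and CDK1 through S and G2, and the B cyclins drive CDK1 into mitosis. The CDC25 phosphatases remove the inhibitory phosphates that WEE1 and PKMYT1 place on these kinases. Transcripts of CCNE1, CCNE2 and CDC25A are known E2F targets, while CCNA2, CCNB1, CCNB2, CDK1 and CDC25C are transcribed late in the cycle through CCAAT boxes and CDE/CHR elements. The level of such a transcript in a culture depends both on how many cells are in the phase that makes it and on how much each cell makes, and bulk arrays cannot tell these apart.

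RefSeq promoters (GRCh38.p14) were at hand for 7 of the 10 genes, from 250 bases before to 50 bases after each start site. Since such elements are what these genes are known to share, windows that hold them are printed for 6 of the genes. Each window is the 120 bases before 1 listed start site, read 5′ to 3′ on the strand of the gene. CDK1 has 2 listed start sites and CDC25C has 4, and the window of 1 is printed for each. Capitals mark every match, on either strand, to the CCAAT box (CCAAT), the CHR element (TTTGAA) or an E2F site (TTCCCGC, else TTCGCGC, else TTGCCGC, else TTGGCGC).
CDK1 (chr10:60778358-60778477, plus strand): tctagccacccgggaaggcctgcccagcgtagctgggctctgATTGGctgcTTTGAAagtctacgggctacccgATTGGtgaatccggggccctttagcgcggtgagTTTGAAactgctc
CCNA2 (chr4:121823884-121824003, minus strand): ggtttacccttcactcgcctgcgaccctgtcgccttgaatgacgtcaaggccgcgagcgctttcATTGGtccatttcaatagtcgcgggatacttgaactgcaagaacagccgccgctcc
CCNB1 (chr5:69167030-69167149, plus strand): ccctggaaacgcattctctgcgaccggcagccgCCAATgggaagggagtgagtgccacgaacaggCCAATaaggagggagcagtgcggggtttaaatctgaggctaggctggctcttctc
CCNB2 (chr15:59105026-59105145, plus strand): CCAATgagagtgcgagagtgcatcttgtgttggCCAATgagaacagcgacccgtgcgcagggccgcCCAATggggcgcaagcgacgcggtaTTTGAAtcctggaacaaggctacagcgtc
CDC25A (chr3:48188418-48188537, minus strand): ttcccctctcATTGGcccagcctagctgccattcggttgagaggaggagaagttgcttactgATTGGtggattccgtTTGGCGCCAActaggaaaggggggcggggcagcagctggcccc
CDC25C (chr5:138331805-138331924, minus strand): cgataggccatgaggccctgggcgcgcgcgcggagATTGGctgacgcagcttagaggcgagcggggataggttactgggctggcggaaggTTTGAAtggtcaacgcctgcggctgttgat
A CCAAT box was in all 6 windows, set against 20.4% of the same windows of 35116 promoters and 34.6% of whole promoters. TTTGAA was in the printed windows of CDK1, CCNB2 and CDC25C, against 5.7% of windows and 15.2% of whole promoters. From the other CDK1 start site a further TTTGAA began at base -161, outside the printed window. The TTTGAA at base 44 from 1 other CDC25C start site is the same element as in the printed window. The remaining CDC25C start sites had neither a CCAAT box nor TTTGAA. In CDC25A the E2F matches on the opposite strands overlap in 1 palindrome. Outside the printed windows, E2F matches also lay in whole promoters of CDK1, CCNB1 and CDC25C. An E2F match was in 5.9% of all windows and 13.0% of whole promoters. Only windows that hold matches are printed, so these shares are a description only. The promoter listed for CCNE1 held none of these letters.

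The targeted transcripts were checked first. H2AZ2 was at 9.94 and 9.83 with sh_37 and 10.43 and 10.35 with sh_38, against 10.94 to 11.05 on the control arrays, so that its mean came to 46.1% (sh_37) and 65.4% (sh_38) of that in the controls. H2AZ1 stood at 19.3% of the control level with sh_83 but at 92.0% with the arrays labelled sh_84, so of these 2 hairpins sh_83 alone had clearly less of its target. With the H2AZ2 hairpins H2AZ1 was at 86.2% (sh_37, limma adjusted p = 0.19) and 90.5% (sh_38, limma adjusted p = 0.396). Array medians lay between 7.0 and 7.1 over all probe sets, and arrays correlated with each other at 0.982 to 0.998. Of the melanocyte markers, SOX10 was at the 91.4th and MITF at the 59.3rd percentile of genes in the controls, whereas MLANA (9.68), TYR (7.27), TYRP1 (6.61) and PMEL (16.8) were near the bottom. AXL (99.3) and TNC (98.7), which mark dedifferentiated melanoma cells, were near the top. The mean over 5 fibroblast markers ranged from 6.67 to 6.97 with H2AZ2 hairpins, from 6.31 to 6.62 with H2AZ1 hairpins and from 6.38 to 6.54 in the controls; none of the 5 passed the test for H2AZ2 hairpins, DCN was at 3.64 against 3.46 and LUM at 9.64 against 8.81. By hairpin, LUM rose by 1.27 with sh_37 and 0.38 with sh_38 but fell with sh_84 (-0.85), and COL1A1 rose by 0.69 with sh_37. Of 9 melanocyte markers, PAX3 fell by 0.49 with the H2AZ2 hairpins. With sh_37 both PAX3 (-0.40) and SOX10 (-0.30) fell, and with sh_38 PAX3 did (-0.57). Of 6 dedifferentiated melanoma markers, EGFR (-0.44) and AXL (-0.32) fell with sh_37. The part of these markers in the results below was not tested.

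With the H2AZ2 hairpins, 9 of the 10 transcripts had a lower mean than in the controls, and 4 fell past the threshold of limma's adjusted p under 0.05: CDK1, CDC25A, CCNE2 and CCNA2. None rose. Over all genes 2.44% fell and 0.863% rose in this comparison. The median difference over the 10 genes was -0.43 on the log2 scale, beside 0.03 over all genes. All 4 H2AZ2 arrays lay below all 4 control arrays in 7 of the 10 genes (CCNE2, CCNA2, CCNB1, CCNB2, CDK1, CDK2 and CDC25A), as did 7.46% of all genes. With the H2AZ1 hairpins none of the 10 passed, and neither did any other gene (0.0% of all). The target H2AZ1 itself did not pass (-1.25, SE 0.43), being at 19.3% of the control level with sh_83 and 92.0% with sh_84. A test that did not call its target cannot show that the 10 genes were unchanged. In this comparison 636 genes had an unadjusted p under 0.05, CCNE1 among them and no other of the 10. The mean over 192 small nucleolar RNAs, short RNAs whose recovery can differ between RNA preparations, ranged from 6.68 to 6.93 with H2AZ2 hairpins and from 6.73 to 7.17 in the controls; with this mean as a covariate CDK1 alone of the 10 passed, and the part of this level in the results was not tested. The number of the 10 genes called with the H2AZ2 hairpins was 1 without scrambled replicate 1, without luciferase replicate 2, without either sh_37 array or without the hairpin sh_37; it was 0 without either control hairpin, and 7 without sh_38.

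**Figure D1:**
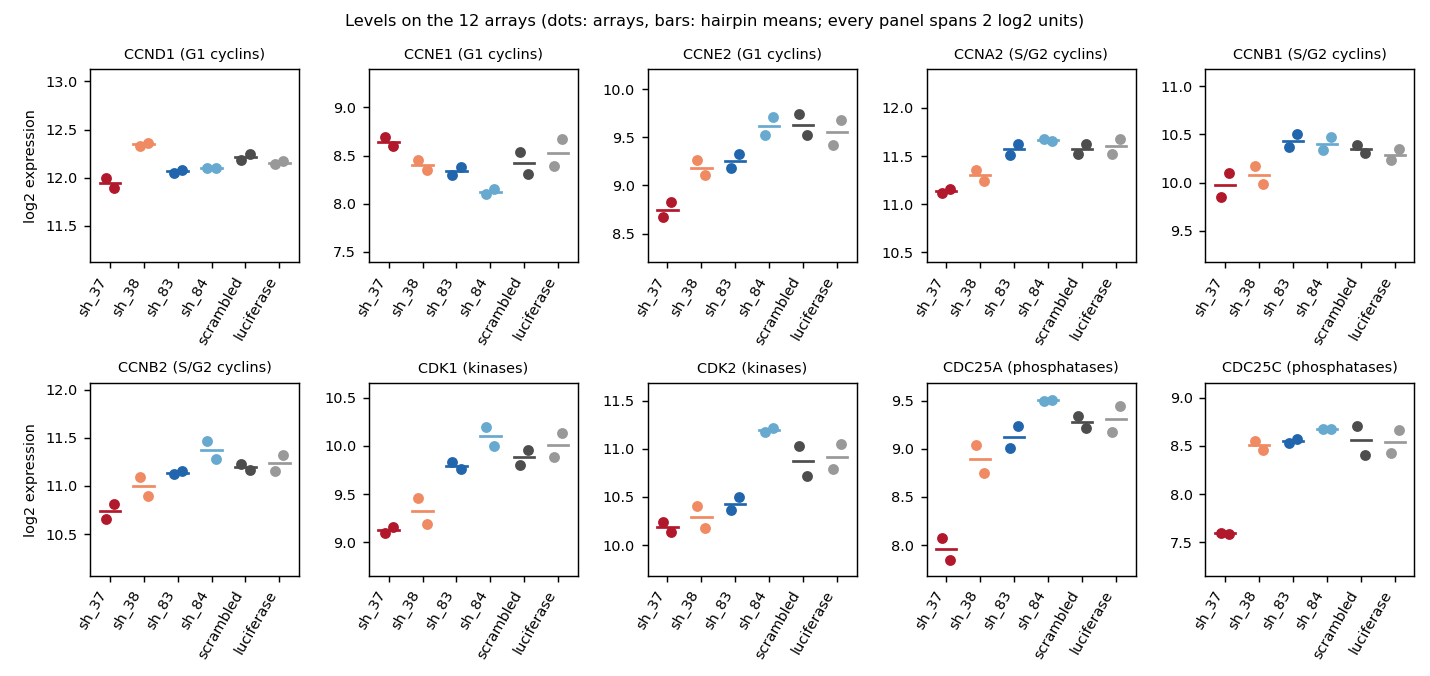
Log2 expression level of each of the 10 genes (1 panel per gene) on the 12 arrays, by hairpin from sh_37 and sh_38 through sh_83 and sh_84 to the scrambled and luciferase controls; each point is an array and each bar the mean of a hairpin's 2 arrays. CDK1, CCNA2, CCNB1 and CCNB2 are low with both H2AZ2 hairpins, CDC25C only with sh_37, CDK2 with sh_37, sh_38 and sh_83, and CCNE1 shows no such drop.

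The G1 cyclins did not share a pattern. CCNE2, the cyclin E that with CDK2 starts S phase, was at 8.67 and 8.83 with sh_37, 9.26 and 9.11 with sh_38, 9.18 and 9.33 with sh_83, 9.52 and 9.71 with sh_84, 9.74 and 9.52 with scrambled and 9.42 and 9.68 with luciferase. The H2AZ2 arrays were all below the controls, and the sh_83 arrays were too. CCNE2 fell by 0.62 with the H2AZ2 hairpins (SE 0.14, limma adjusted p = 0.0331), to 65.0% of the control level. By hairpin the difference was -0.84 with sh_37 (SE 0.11, limma adjusted p = 0.000614) and -0.41 with sh_38 (limma adjusted p = 0.0649). Its close relative CCNE1 was at 8.69 and 8.60 with sh_37, 8.45 and 8.35 with sh_38, 8.30 and 8.38 with sh_83, 8.10 and 8.15 with sh_84, 8.54 and 8.31 with scrambled and 8.39 and 8.67 with luciferase. The H2AZ2 and control arrays of CCNE1 overlapped, with a difference of 0.05 (SE 0.11, limma adjusted p = 0.841); the lowest pair was sh_84. CCND1, the cyclin that answers growth signals, was at 11.996 and 11.894 with sh_37, 12.33 and 12.36 with sh_38, 12.05 and 12.08 with sh_83, 12.10 and 12.10 with sh_84, 12.18 and 12.25 with scrambled and 12.14 and 12.17 with luciferase. The H2AZ2 hairpins stood on opposite sides of the controls: CCND1 fell by 0.24 with sh_37 (SE 0.07, limma adjusted p = 0.0479) and differed by 0.16 with sh_38 (limma adjusted p = 0.242), which left -0.04 over both (SE 0.10, limma adjusted p = 0.851).

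The S/G2 cyclins shared an order by hairpin mean, with sh_37 lowest and sh_38 next. CCNA2, which pairs with CDK2 in S phase and CDK1 in G2, was at 11.12 and 11.16 with sh_37, 11.36 and 11.24 with sh_38, 11.51 and 11.63 with sh_83, 11.68 and 11.66 with sh_84, 11.52 and 11.63 with scrambled and 11.52 and 11.68 with luciferase. No H2AZ2 array reached any other array. CCNA2 fell by 0.37 (SE 0.08, limma adjusted p = 0.0284), to 77.4% of the control level. CCNB1, the main mitotic cyclin, was at 9.85 and 10.10 with sh_37, 10.17 and 9.98 with sh_38, 10.37 and 10.50 with sh_83, 10.34 and 10.47 with sh_84, 10.39 and 10.31 with scrambled and 10.23 and 10.35 with luciferase. Its H2AZ2 arrays were again below all others, but the difference of -0.29 did not pass (SE 0.09, limma adjusted p = 0.0938). CCNB2, the second B cyclin, was at 10.66 and 10.81 with sh_37, 11.09 and 10.90 with sh_38, 11.12 and 11.15 with sh_83, 11.47 and 11.28 with sh_84, 11.23 and 11.17 with scrambled and 11.15 and 11.32 with luciferase. The CCNB2 difference of -0.35 did not pass either (SE 0.11, limma adjusted p = 0.0911), although its H2AZ2 arrays too lay below every other array. The CCNE2 and CCNA2 calls were lost without scrambled replicate 1, either sh_37 array or luciferase replicate 2, with adjusted p over all settings of 0.00324 to 0.176 for CCNE2 and 0.00737 to 0.158 for CCNA2.

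Both kinases were lower with each H2AZ2 hairpin. CDK1, the kinase that starts mitosis, was at 9.10 and 9.16 with sh_37, 9.46 and 9.19 with sh_38, 9.83 and 9.76 with sh_83, 10.20 and 10.00 with sh_84, 9.80 and 9.96 with scrambled and 9.89 and 10.13 with luciferase. The 4 H2AZ2 arrays were below all 8 others by a clear gap. CDK1 fell by 0.72 (SE 0.12, limma adjusted p = 0.00722), to 60.8% of the control level, and 0.478% of all genes had a difference at or below this. It fell by 0.82 with sh_37 (limma adjusted p = 0.00065) and also fell by 0.62 with sh_38 (limma adjusted p = 0.00916). Of the 4 calls with the H2AZ2 hairpins, CDK1 alone kept its call whichever single array was left out; it lost it without the scrambled hairpin (limma adjusted p = 0.0598) or the luciferase hairpin (limma adjusted p = 0.081). CDK2, the partner of cyclins E and A in S phase, was at 10.24 and 10.14 with sh_37, 10.41 and 10.18 with sh_38, 10.36 and 10.50 with sh_83, 11.17 and 11.22 with sh_84, 11.03 and 10.72 with scrambled and 10.79 and 11.05 with luciferase. Here 3 hairpins were low, namely sh_37, sh_38 and sh_83, and sh_84 was above the controls. CDK2 fell by 0.71 with sh_37 (SE 0.11, limma adjusted p = 0.0022) and also fell by 0.60 with sh_38 (SE 0.11, limma adjusted p = 0.0137). Over both H2AZ2 hairpins its difference of -0.65 did not pass (SE 0.18, limma adjusted p = 0.0593); this fit shares its spread with the H2AZ1 arrays, and without the hairpin sh_83 or sh_84 CDK2 passed (limma adjusted p = 0.00811 and 0.00897).

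The phosphatases separated the H2AZ2 hairpins from each other. CDC25A, which activates CDK2 at the G1/S transition, was at 8.07 and 7.85 with sh_37, 9.04 and 8.75 with sh_38, 9.01 and 9.24 with sh_83, 9.50 and 9.51 with sh_84, 9.34 and 9.22 with scrambled and 9.17 and 9.44 with luciferase. The sh_37 arrays stood far below the rest, and the sh_38 arrays also lay below all control arrays. CDC25A fell by 0.86 over the H2AZ2 hairpins (SE 0.22, limma adjusted p = 0.044), to 55.0% of the control level; with sh_37 it fell by 1.33 (SE 0.12, limma adjusted p = 5.53e-05), and with sh_38 its difference of -0.40 did not pass (limma adjusted p = 0.0898). The call over both hairpins did not hold in most of the other settings, where the limma adjusted p reached 0.23; among them were those without scrambled replicate 1, either luciferase array, either sh_37 array, either sh_84 array or sh_83 replicate 2. CDC25C, which activates CDK1 with cyclin B at the entry into mitosis, was at 7.60 and 7.59 with sh_37, 8.55 and 8.46 with sh_38, 8.53 and 8.57 with sh_83, 8.68 and 8.68 with sh_84, 8.71 and 8.41 with scrambled and 8.43 and 8.66 with luciferase. Only the sh_37 arrays departed, and the sh_38 values of CDC25C lay within the range of the controls. CDC25C fell by 0.95 with sh_37 (SE 0.10, limma adjusted p = 0.000152), against a difference of -0.05 with sh_38 (limma adjusted p = 0.808) and -0.50 over both (SE 0.19, limma adjusted p = 0.196).

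**Figure D2:**
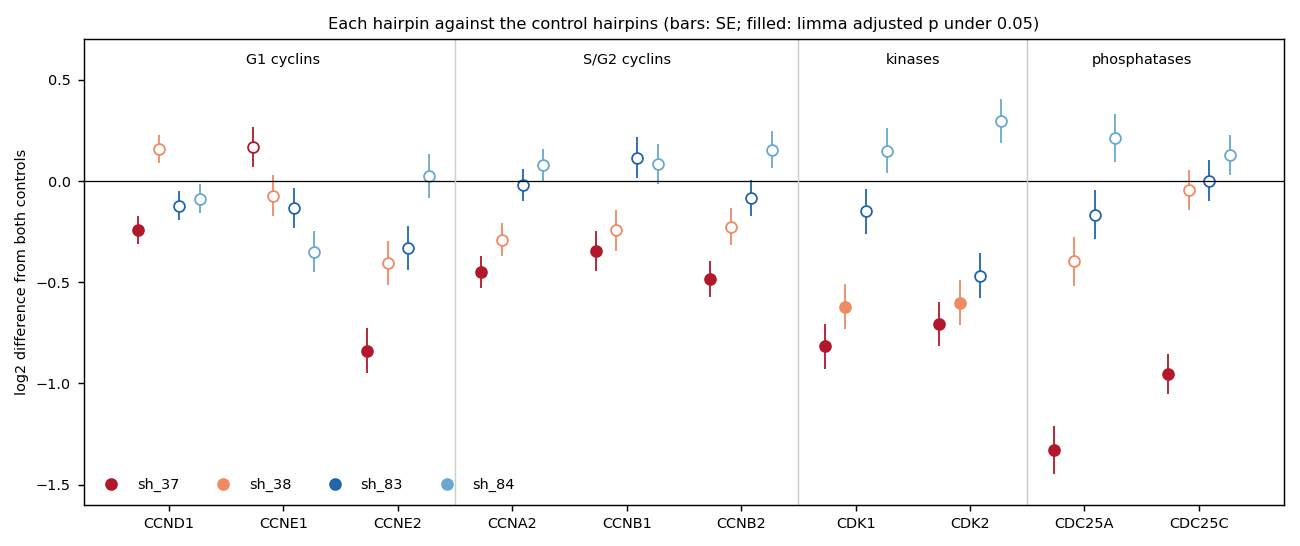
Log2 difference of each of the 10 genes from the 4 control arrays, by hairpin (sh_37, sh_38, sh_83, sh_84), from the fit with 6 hairpins as groups; error bars are standard errors and filled points passed limma's adjusted p under 0.05. All but CCNE1 are filled for sh_37, CDK1 and CDK2 alone for sh_38, and none for sh_83 or sh_84.

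By hairpin and role, the counts were as follows. With sh_37, 9 of the 10 fell, beside 7.19% of all genes: CCND1 and CCNE2, the 3 S/G2 cyclins, both kinases and both phosphatases. With sh_38, 2 of the 10 fell, beside 3.33% of all genes, and both were the kinases. At an unadjusted p under 0.05 stood 8 of the 10, among 3702 genes, of which CCND1 was higher and the others were lower. The median difference by role with sh_37 was -1.14 for the phosphatases, -0.76 for the kinases, -0.45 for the S/G2 cyclins and -0.24 for the G1 cyclins, beside 0.01 over all genes. With sh_38 it was -0.61 for the kinases, -0.24 for the S/G2 cyclins, -0.22 for the phosphatases and -0.07 for the G1 cyclins, beside 0.03 over all genes. With sh_83, none of the 10 passed, beside 0.489% of genes that fell; CCNE2 (-0.33) and CDK2 (-0.47) were the 2 of the 10 with an unadjusted p under 0.05, among 1878 genes. With sh_84, none passed, beside 0.342% of genes that fell and 0.0109% that rose; CCNE1 (-0.35) and CDK2 (0.30) had an unadjusted p under 0.05, among 1540 genes. The sh_37 count was 5 without sh_37 replicate 1 and between 7 and 8 without any other array; the CCND1 call was lost without any 1 of the 12 arrays and the CCNB1 call without 9 of them. The sh_38 count was 0 without sh_38 replicate 2. The control hairpins differed from each other by between -0.12 and 0.08 in the 10 genes, scrambled minus luciferase, with none past the threshold (0.0% of all genes) and none at an unadjusted p under 0.05, where 1384 genes were.

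In the order of the 6 hairpins, sh_37 was lowest for every gene but CCNE1, where it was highest. For CCNE2, CCNA2, CCNB2, CDK1, CDC25A and CDC25C the sh_37 arrays were also apart from those of the next hairpin, sh_38; for CCND1 they were apart from those of sh_83. For CCNB1 and CDK2 they overlapped sh_38. CDK2 had sh_37, sh_38 and sh_83 as overlapping neighbours, then a gap to scrambled and luciferase, and a gap to sh_84. CCND1 had no overlapping neighbours, and its order was sh_37, sh_83, sh_84, luciferase, scrambled, sh_38. At the upper end sh_84 was highest for CCNA2, CCNB2, CDK1, CDK2, CDC25A and CDC25C, but its arrays were apart from the next hairpin only for CDK2 and CDC25A.

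The difference between the H2AZ2 hairpins was tested directly. H2AZ2 itself was lower with sh_37 than with sh_38, with a difference of -0.50 (limma adjusted p = 0.00763). Of the 10 genes, 3 were lower with sh_37 than with sh_38, beside 2.20% of all genes: CDC25A (-0.93, SE 0.14, limma adjusted p = 0.00233), CDC25C (-0.91, SE 0.11, limma adjusted p = 0.00102) and CCND1 (-0.40, SE 0.08, limma adjusted p = 0.015). CCNE2 differed by -0.43 (limma adjusted p = 0.0742). The kinases did not pass, with -0.20 for CDK1 (limma adjusted p = 0.482) and -0.11 for CDK2 (limma adjusted p = 0.756), and neither did the S/G2 cyclins, at -0.16 for CCNA2, -0.10 for CCNB1 and -0.26 for CCNB2. The CCND1 call was lost without any 1 of the 4 arrays of sh_37 and sh_38, where the count was 2.

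**Figure D3:**
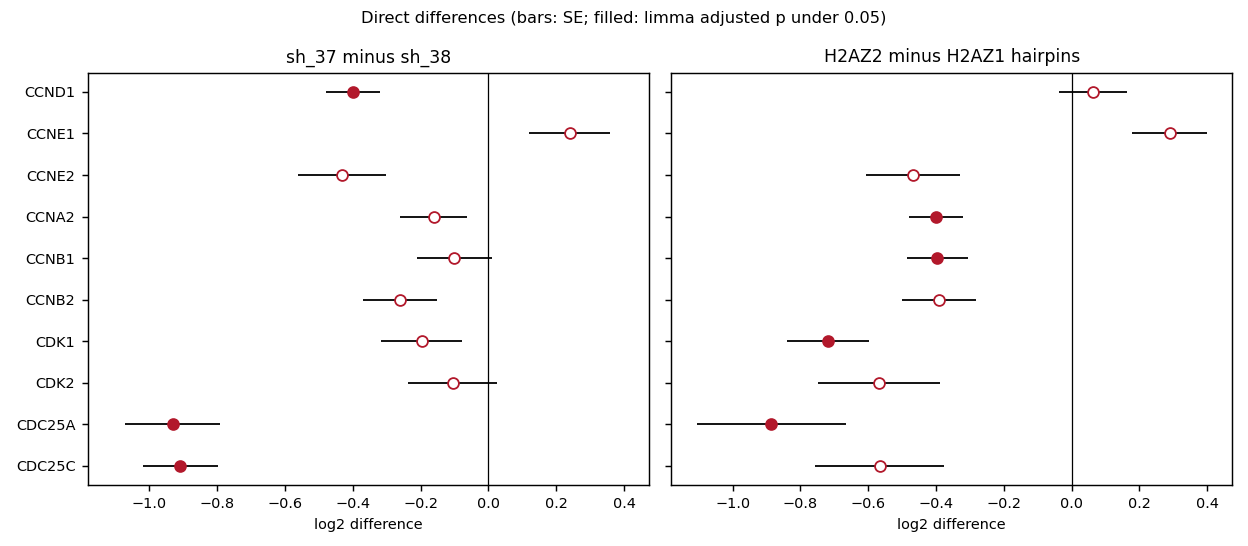
Log2 differences between hairpin groups for the 10 genes, sh_37 minus sh_38 and H2AZ2 hairpins minus H2AZ1 hairpins; error bars are standard errors and filled points passed limma's adjusted p under 0.05. CDC25A, CDC25C and CCND1 are filled between the H2AZ2 hairpins, and CDK1, CDC25A, CCNA2 and CCNB1 between the targets.

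Set against the H2AZ1 hairpins in place of the controls, 4 of the 10 genes were lower with the H2AZ2 hairpins, beside 2.28% of all genes: CDC25A (-0.89, limma adjusted p = 0.0345), CDK1 (-0.72, limma adjusted p = 0.00571), CCNA2 (-0.40, limma adjusted p = 0.0171) and CCNB1 (-0.40, limma adjusted p = 0.0257). All 4 H2AZ2 arrays lay below all 4 H2AZ1 arrays for CCNA2, CCNB1, CCNB2 and CDK1, as for 6.84% of all genes. CCNB2 (-0.39), CCNE2 (-0.47), CDK2 (-0.57) and CDC25C (-0.57) did not pass, and CCNE1 was the one with the largest positive difference (0.29, limma adjusted p = 0.171). The H2AZ2 arrays are the same as in the comparison with the controls. The count was 0 without the hairpin sh_84, 1 without the hairpin sh_37, scrambled replicate 1 or sh_84 replicate 2, 2 without sh_84 replicate 1 or sh_83 replicate 2, 6 without sh_83 replicate 1 or the hairpin sh_83, and 7 without sh_38. Against sh_83 alone, the H2AZ1 hairpin with a reduced target, the test came from the fit of 6 hairpins. That fit does not count the spread between sh_37 and sh_38, so its calls are not like those above. In it 5 of the 10 were lower with the mean of the H2AZ2 hairpins, beside 2.38% of all genes. They were CDC25A (-0.70, limma adjusted p = 0.00692), CDK1 (-0.57, limma adjusted p = 0.0124), CDC25C (-0.50, limma adjusted p = 0.015), CCNB1 (-0.41, limma adjusted p = 0.0369) and CCNA2 (-0.35, limma adjusted p = 0.0352). CDC25C averaged 8.51 with sh_38 and 8.55 with sh_83, and its difference was -0.0472 without the hairpin sh_37. CDK2 differed by -0.19 from sh_83 (limma adjusted p = 0.499). That count was 0 without sh_83 replicate 2 or the hairpin sh_37, 1 without sh_83 replicate 1, 2 without sh_37 replicate 1, and 3 without sh_37 replicate 2, sh_38 replicate 2 or either sh_84 array.

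Within the H2AZ1 hairpins, CDK2 was lower with sh_83 than with sh_84 (-0.76, SE 0.13, limma adjusted p = 0.0218), the only 1 of the 10 past the threshold, beside 0.472% of all genes. Its sh_83 arrays, at 10.36 and 10.50, sat near those of the H2AZ2 hairpins, and its sh_84 arrays, at 11.17 and 11.22, above the controls. This comparison was added after the CDK2 values had been seen, and CDK2 lost its call without any 1 of the 4 arrays of sh_83 and sh_84. Over both H2AZ1 hairpins the differences of the 10 genes from the controls ran from -0.24 for CCNE1 (SE 0.11, limma adjusted p = 1) to 0.10 for CCNB1.

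Of 64 other genes of the pathway measured in 4 lists, 7 fell with the H2AZ2 hairpins (10.9%, beside 2.44% of all genes) and 1 rose (beside 0.863%). Of 20 other cyclins, CDKs and CDK partners, 18 were measured and 3 fell, with a median difference of -0.10: MNAT1, the assembly factor of the CDK-activating kinase (-0.59, limma adjusted p = 0.0312), CCNF, the F-box cyclin (-0.43, limma adjusted p = 0.0199), and CDC25B, the third CDC25 phosphatase (-0.40, limma adjusted p = 0.0285). MNAT1 averaged 9.01 ± 0.30 with H2AZ2 hairpins and 9.61 ± 0.06 in the controls (SD, n = 4 each), and was the one of these lower with sh_38 (-0.83) than with sh_37 (-0.36). Of 12 CDK inhibitors and inhibitory kinases, 11 were measured, 1 fell and 1 rose, with a median of -0.02. PKMYT1, the kinase that holds CDK1 inactive, fell by 0.66 (limma adjusted p = 0.00744), to 8.32 ± 0.10, against 8.97 ± 0.09 in the controls (SD, n = 4 each). CDKN1A, which encodes the CDK inhibitor p21, rose by 0.59 (limma adjusted p = 0.0185), to 10.51 ± 0.10, against 9.92 ± 0.15 in the controls (SD, n = 4 each). It rose with both H2AZ2 hairpins, by 0.66 with sh_37 and 0.51 with sh_38.

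All 24 genes of cyclin and CDC25 degradation were measured and 2 fell, with a median of -0.12. USP37, a deubiquitinase that stabilises cyclin A, fell by 0.66 (limma adjusted p = 0.0363), and FBXO5, the inhibitor of the anaphase-promoting complex known as EMI1, fell by 0.58 (limma adjusted p = 0.0152). Of 11 regulators of mitotic entry measured, 1 fell, with a median of -0.20: MASTL, the Greatwall kinase (-0.42, limma adjusted p = 0.0227). The median over all genes was 0.03. By hairpin, the genes that fell numbered 6, 2, 7 and 5 in the 4 lists with sh_37, in the order given here, and 1, 1, 2 and 1 with sh_38. Together that is 20 of 64 with sh_37 (31.2%, beside 7.19% of all genes) and 5 of 64 with sh_38 (7.81%, beside 3.33% of all genes). Of the 64, 3 rose with sh_37 and 1 with sh_38, all of them CDK inhibitors or inhibitory kinases. Over all 18417 genes, 2377 were called in either direction with sh_37, of which 1324 fell. With sh_38 848 were called, of which 613 fell. None of the 4 lists had a call with sh_83, where 0.489% of all genes fell, or with sh_84, where 0.342% did. At such low shares, the lack of a call does not set the lists apart from all genes. FBXO5 averaged 9.69 ± 0.16 with H2AZ2 hairpins and 10.27 ± 0.11 in the controls (SD, n = 4 each), and MASTL 9.90 ± 0.08 and 10.32 ± 0.12. All 8 calls in the 4 lists were lost without scrambled replicate 1, where limma's adjusted p was 0.0562 to 0.2. With the small nucleolar RNA level as a covariate, MNAT1, CCNF, CDC25B and MASTL lost their calls (limma adjusted p = 0.0664, 0.0597, 0.0592 and 0.0644), and CDC25B also lost its call after quantile normalisation (limma adjusted p = 0.0565). Those of CCNF, CDC25B, MASTL, MNAT1 and USP37 were also lost without luciferase replicate 2, those of CDC25B, MNAT1 and USP37 without luciferase replicate 1, those of CCNF, CDC25B and USP37 without sh_37 replicate 2, that of CDC25B without sh_37 replicate 1 and that of USP37 without sh_38 replicate 2.

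**Figure D4:**
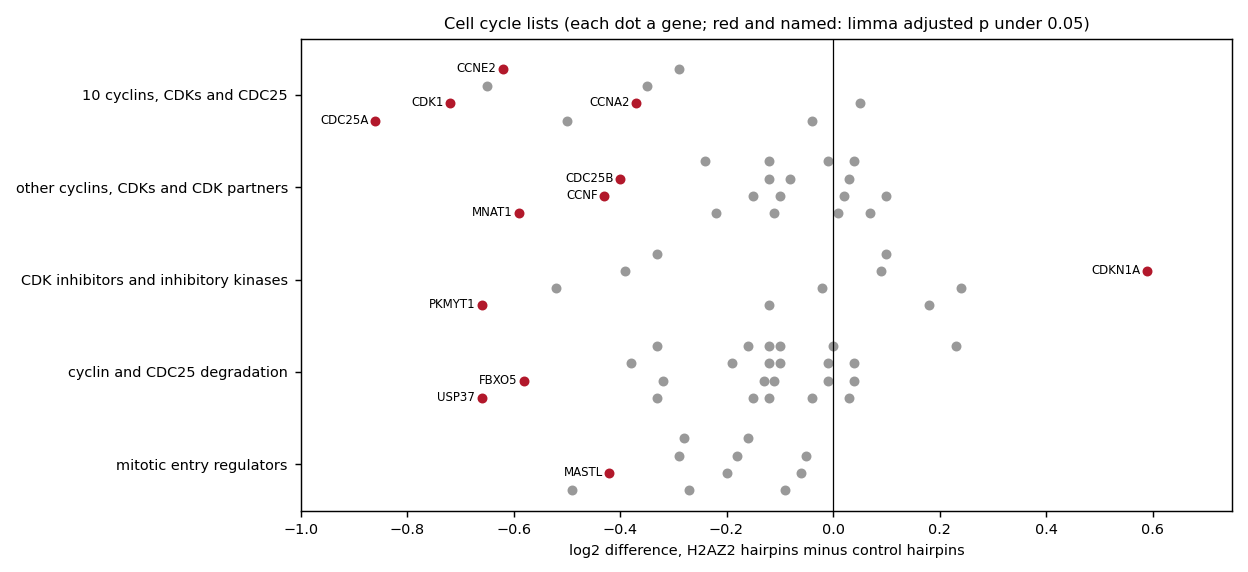
Log2 difference, H2AZ2 hairpins minus control hairpins, of each measured gene (1 dot each) in the 10 cyclins, CDKs and CDC25 phosphatases and in 4 further cell cycle lists; red named dots passed limma's adjusted p under 0.05. Of the red dots, CDKN1A alone lies above 0, and the vertical spread within a list has no meaning.

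Across the 12 arrays the genes whose levels ran most closely with each member were found among 9200 genes with an SD of at least 0.151. All these correlations rest on the same 12 arrays in 6 hairpins, so they are a description. For CDK1 they were MCM6 (Pearson r = 0.986), GINS2 (0.985) and IPO5 (0.977), the first 2 being parts of the replicative helicase, and for CCNA2 they were ORC6 (0.99), MCM4 (0.985) and RACGAP1 (0.983). For CCNE2 they were BARD1 (0.981), CENPN (0.977) and BCL2 (0.976), for CCNB2 MBOAT1 (0.977), NUF2 (0.976) and RAD1 (0.971), and for CDK2 ODAD2 (0.979), SCML1 (0.974) and FANCI (0.974). CDC25A was closest to AGK (0.99), POGLUT3 (0.989) and PRR11 (0.986), CDC25C to STEAP1B (0.98), SWAP70 (0.98) and STAMBPL1 (0.979), and CCNB1 to EXOSC2 (0.962), E2F6 (0.93) and DUSP5 (0.927). The genes closest to CCND1 (ABCA13, 0.911) and CCNE1 (GSTT1, 0.96) were none of these. Between the members themselves, r was 0.97 for CDK1 with CCNA2, 0.95 for CDK1 with CCNB2 and 0.95 for CDC25A with CDC25C. CCND1 had 0.11 with CDK1, and CCNE1 ran against CDK1 at -0.51.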

How the data were processed

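The values analysed are log2 expression levels per probe set as the authors deposited them. Per the submitters' processing notes they were made with RMA. The version, the software and the genome build were not given in the sources used here. No further normalisation was applied. Of 33297 probe sets, 19460 had 1 gene symbol, 1754 had several and 12083 were not listed in the platform annotation; 19429 matched a RefSeq gene by Entrez ID. The brightest probe set was kept for 769 genes with several, leaving 18417 genes. Arrays have no read depth; their number limits the precision.

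Tests used limma 3.58.1 in R 4.3.3, two-sided, with Benjamini-Hochberg adjustment over all genes and a threshold of 0.05. Targets (4 arrays each) were compared with the hairpin as a random block (consensus correlation 0.157), single hairpins in a fit of 6 groups of 2 arrays. Both fits were tested on simulated data. Named genes are the 10 members, in each list up to 4 called genes with the largest difference for H2AZ2 hairpins against control, and the 3 best correlated genes per member. CCNB3, CDK8 and CDKN2C were not analysed here. The members, lists and tests were chosen with earlier results of these data known. Alternatives covered the replicate number as a block, probe set averaging, dim genes, normalisation, the variance model, small nucleolar RNA level as a covariate, and each array or hairpin left out. Figures were drawn with matplotlib 3.10.9.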

Additional observations from a re-analysis of the deposited data

Results flagged for a closer look

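Some genes differed between hairpins or targets by a test of the difference itself. Between the H2AZ2 hairpins, sh_37 minus sh_38, these were CDC25A (-0.93), CDC25C (-0.91) and CCND1 (-0.40). CDC25A and CDC25C encode phosphatases that activate CDKs, and CCND1 the G1 cyclin D1. H2AZ2 itself was lower with sh_37 than with sh_38. Between the H2AZ1 hairpins, sh_83 minus sh_84, CDK2 differed by -0.76; this comparison was added after the CDK2 values had been seen, and the call was lost without any 1 of the 4 arrays (adjusted p 0.107 to 0.262). H2AZ1 stood at 19.3% of the control level with sh_83 and at 92.0% with sh_84. Between the targets, H2AZ2 minus H2AZ1 hairpins, CDC25A (-0.89), CDK1 (-0.72), CCNA2 (-0.40) and CCNB1 (-0.40) differed. No array of the 10 genes stood apart from the other 3 of its target far enough to pass Dixon's test.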

How the results depend on the processing

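Several calls depended on the setting, and the causes were not tested. Of the settings tried, CDC25A passed for H2AZ2 against control hairpins in 9 of 26, and with sh_37 CCND1 passed in 7 of 24 and CCNB1 in 11 of 24. For H2AZ2 against control hairpins, CDK2 and CCNB2 gained a call with the trended, robust variance model (adjusted p 0.0454 and 0.0489), and CDK2 and CCNB1 without the hairpin block (0.0402 and 0.0471). With small nucleolar RNA level as a covariate, genes called numbered 343 (609 in the fit reported) for H2AZ2 against control hairpins and 1 of the 10 members fell (4), 219 (118) for sh_83, 354 (65) for sh_84 with 1 member (0), 1860 (1155) for sh_37 against sh_38 with 5 members (3), 520 (219) for sh_83 against sh_84 and 2018 (964) for H2AZ2 hairpins against sh_83. Without the hairpin block, 957 genes were called for H2AZ2 against control, 2 (0) for H2AZ1 against control and 1211 (802) for H2AZ2 against H2AZ1 hairpins. With a trended, robust variance model, 3 genes were called for H2AZ1 against control, 284 for sh_83 with 1 member (CDK2), 176 for sh_84 and 467 for sh_83 against sh_84, and 5 members (2) fell with sh_38. Centring gave 74 genes for sh_83, and leaving out the dimmest 25% of genes gave 114 for sh_84.

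Whether the replicate numbers pair the arrays is not settled by these values. Of 15 pairs of hairpins, same-numbered arrays deviated together (correlation over 0.1) in 9, with a range of -0.469 to 0.677. With the replicate number as a block, genes called numbered 2723 (2377) for sh_37, 1110 (848) for sh_38 and 169 (118) for sh_83. They numbered 113 (65) for sh_84, 1385 (1155) for sh_37 against sh_38 and 343 for sh_83 against sh_84. With H2AZ2 hairpins they numbered 445 (609) against control and 601 (802) against H2AZ1 hairpins. Against control 3 members fell with H2AZ2 hairpins, CDC25A having an adjusted p of 0.0642.

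Leaving out 1 array or 1 hairpin gave 14 to 1681 genes and 0 to 7 members for H2AZ2 against control, 0 to 17 genes for H2AZ1 against control, 93 to 1795 genes and 0 to 7 members for H2AZ2 against H2AZ1 hairpins, 922 to 2510 genes (2377) and 5 to 8 members (9) for sh_37, 148 to 1431 genes (848) and 0 to 3 members for sh_38, 6 to 111 genes for sh_83, 1 to 150 for sh_84, 393 to 1238 genes and 2 to 3 members for sh_37 against sh_38, 34 to 237 genes and 0 to 1 member for sh_83 against sh_84, and 150 to 1467 genes and 0 to 7 members for H2AZ2 hairpins against sh_83.

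Direction turned only for small differences past no threshold. With an array or hairpin left out, CCND1 ranged from -0.241 to 0.159 and CCNE1 from -0.0724 to 0.167 for H2AZ2 against control, CCND1 from -0.137 to 0.263 for H2AZ2 against H2AZ1 hairpins, CCNB1 from -0.224 to 0.0217 and CDK2 from -0.221 to 0.00821 for sh_37 against sh_38, CDC25C from -0.121 to 0.0304 with sh_38 and from -0.0735 to 0.0775 with sh_83, CCNA2 from -0.0814 to 0.0444 with sh_83, and CCNE2 from -0.0723 to 0.12 with sh_84. CCNE1 with sh_38 was 0.0341 with the small nucleolar RNA covariate, CDC25C with sh_38 was 0.08 with it and 0.0201 after quantile normalisation, and CCNA2 with sh_83 was 0.00585 after centring. Signal over background and scan batches were not analysed here, with 2 arrays per hairpin.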
